A study of Mus musculus with 9 samples.

Results

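A set of 10 genes of the endoplasmic reticulum (ER) stress response was followed in mouse liver. They were chosen by name (Hspa5, Hsp90b1, Pdia4, Dnajb9, Herpud1, Xbp1, Atf4, Ddit3, Trib3 and Asns). The genes and the lists used below were chosen with earlier results of these data known, so their counts beside all genes are a description. Of the 52151 entries of the gene table, 11 carried one of these names. For 9 of the 10 genes there was 1 named entry with a known transcript. The other 2 named entries, both called Pdia4, held only assembled transcripts and reached at most 3.31 FPKM. The coding transcript of Pdia4 sat in an entry named after Mir704, a microRNA gene whose transcript shares that entry, and the Pdia4 values below are those of this entry.

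Liver total RNA was sequenced after depletion of ribosomal RNA in 3 groups of 3 libraries. Pair-fed mice (PF) had an isocaloric liquid diet and alcohol-fed mice (AF) the Lieber-DeCarli liquid diet. The group written here as AF+MNA had the same alcohol diet plus a daily intraperitoneal injection of MNA at 50 mg/kg. The labels do not spell out MNA, and they state no injection for PF or AF, so the compound and the injection cannot be told apart. All mice were fed for 5 weeks and are labelled with an age of 8 weeks. The strain is given as C57BL/6 for PF and AF, and as C57BL/7, C57BL/8 and C57BL/9 for replicates 1, 2 and 3 of AF+MNA. These numbers run on from the 6 of the other groups, and whether the strain differed cannot be told from the labels. Nothing in the labels states beyond the replicate numbers that the 3 libraries of a group are separate animals, so p-values measure the spread between these libraries.

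The ER folds secreted and membrane proteins, and in the liver it carries a heavy load because hepatocytes secrete most plasma proteins. Unfolded proteins in the ER are sensed by IRE1, PERK and ATF6. IRE1 cuts a short segment out of Xbp1 mRNA, which yields an active transcription factor, ATF6 is released by proteolysis, and PERK slows translation through eIF2α while translation of Atf4 goes up. XBP1 and ATF6 are known to drive chaperone and degradation genes, whereas ATF4 drives amino acid genes and, together with CHOP (Ddit3), genes of prolonged stress. The eIF2α branch can also be entered without ER stress, through GCN2, PKR or HRI.

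The DNA motifs of these branches are shown first, as a description of the 10 genes to set beside the expression values. RefSeq windows of GRCm38.p6, from 250 bases before to 50 after each gene's start site, were searched on both strands, and all 10 genes had a window. The ER stress response element (ERSE) was searched as CCAAT and CCACG separated by 9 bases, and ERSE-II as ATTGG and CCACG separated by 1 base. The XBP1-type element (UPRE) was TGACGTGG, and the composite site of ATF4 and C/EBP was TGATGNAA. CCACG of the first and second motifs is also contained in the reverse complement of UPRE. ERSE was found in 0.119% of 32851 windows, and among them were Hspa5 and Hsp90b1. ERSE-II was found in 0.0365% of windows, Herpud1 among them. The ATF4 composite was found in 3.97% of windows, with Asns, Herpud1 and Trib3 among them. UPRE was found in 0.676% of windows and in none of the 10. Pdia4, Dnajb9, Xbp1, Atf4 and Ddit3 held none of these letters in the window. Only exact letters within the window were searched, so sites with other letters or further away were not covered. The matches do not assign each gene to a branch.

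The stretches around the matches upstream of the RefSeq start site are printed 5′ to 3′ on the strand of the gene, with each match in capitals. They lie at chr2:34772015-34772053 (Hspa5, plus strand), chr10:86705523-86705666 (Hsp90b1, minus strand), chr8:94386307-94386397 (Herpud1, plus strand) and chr6:7693215-7693242 (Asns, minus strand). GENCODE M21 starts Hspa5 and Asns further upstream, so these stretches of both genes lie inside its gene bounds. Hsp90b1 has 2 ERSE matches, the one further from the start site in the gene's direction and the other on the opposite strand. In Herpud1 the first match is the ATF4 composite on the opposite strand, and the second is ERSE-II.
Hspa5: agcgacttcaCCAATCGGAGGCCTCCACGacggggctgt
Hsp90b1: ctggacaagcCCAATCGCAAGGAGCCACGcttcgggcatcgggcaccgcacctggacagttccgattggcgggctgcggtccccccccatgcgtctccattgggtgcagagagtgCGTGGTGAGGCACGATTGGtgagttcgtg
Herpud1: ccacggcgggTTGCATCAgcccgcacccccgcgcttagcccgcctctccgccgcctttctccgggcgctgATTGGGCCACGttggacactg
Asns: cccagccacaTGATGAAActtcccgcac

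The segment that IRE1 removes from Xbp1 mRNA was located in the GENCODE M21 transcript Xbp1-201 as the 26 bases between a pair of stem-loops cut after CNG. It lies inside the coding sequence, in exon 4 of that transcript, at chr11:5524279-5524304 of GRCm38 on the plus strand, and is shown in capitals with 15 bases on each side. The gene table sums all Xbp1 transcripts, so its FPKM does not separate mRNA with and without this segment.
Xbp1: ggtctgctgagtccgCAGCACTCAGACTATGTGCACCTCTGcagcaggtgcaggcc

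Gene levels are given in FPKM, a fragment count divided by transcript length and by the size of the library. Groups were compared with limma on log2(FPKM + 1) over the named entries with a known transcript and a mean of at least 0.5 FPKM in the 6 libraries compared. A coefficient is the difference of the group means on that scale, which understates the change of low genes, and adjusted p-values are Benjamini-Hochberg values over all genes tested. The smallest 2-sided p that an exact permutation of 3 libraries against 3 can give is 0.1. The table holds no counts, and in the lncRNA table the read coverage per base that went with 1 FPKM was 5.84 to 8.30 over the libraries. AF replicate 3 and AF+MNA replicate 1 had a summed FPKM of 9433 and 8934 in intron transcripts, as compared to between 2477 and 4937 in the other 7 libraries. The 8 hepatocyte markers, such as Alb and Ttr, summed to between 21904 and 29279 FPKM in every library, of which Alb alone gave 10882 to 17386. In AF against PF their coefficients ran from -0.71 (Ttr) to 1.18 (Tat), and Tat and Ahsg, 2 of the 8, were higher at an unadjusted p under 0.05, as compared to 5.1% of all genes. In tissue RNA, fewer cells of a type and less RNA per cell cannot be told apart.

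Ordered by the mean over the 9 libraries, Hsp90b1 was highest at 86.0 FPKM, followed by Pdia4 at 60.0 and Hspa5 at 59.9. Herpud1 stood at 34.1, Atf4 at 18.8, Xbp1 at 15.3 and Dnajb9 at 10.9 FPKM. Trib3 at 2.57, Ddit3 at 2.10 and Asns at 0.516 FPKM were the lowest. The ranges of neighbours in this order overlapped over the 9 libraries in every case, although within each library the 7 upper genes lay above Trib3, Ddit3 and Asns. The plot of the 10 genes by library shows 4 panels in which PF stands above both alcohol-fed groups.

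**Figure D1:**
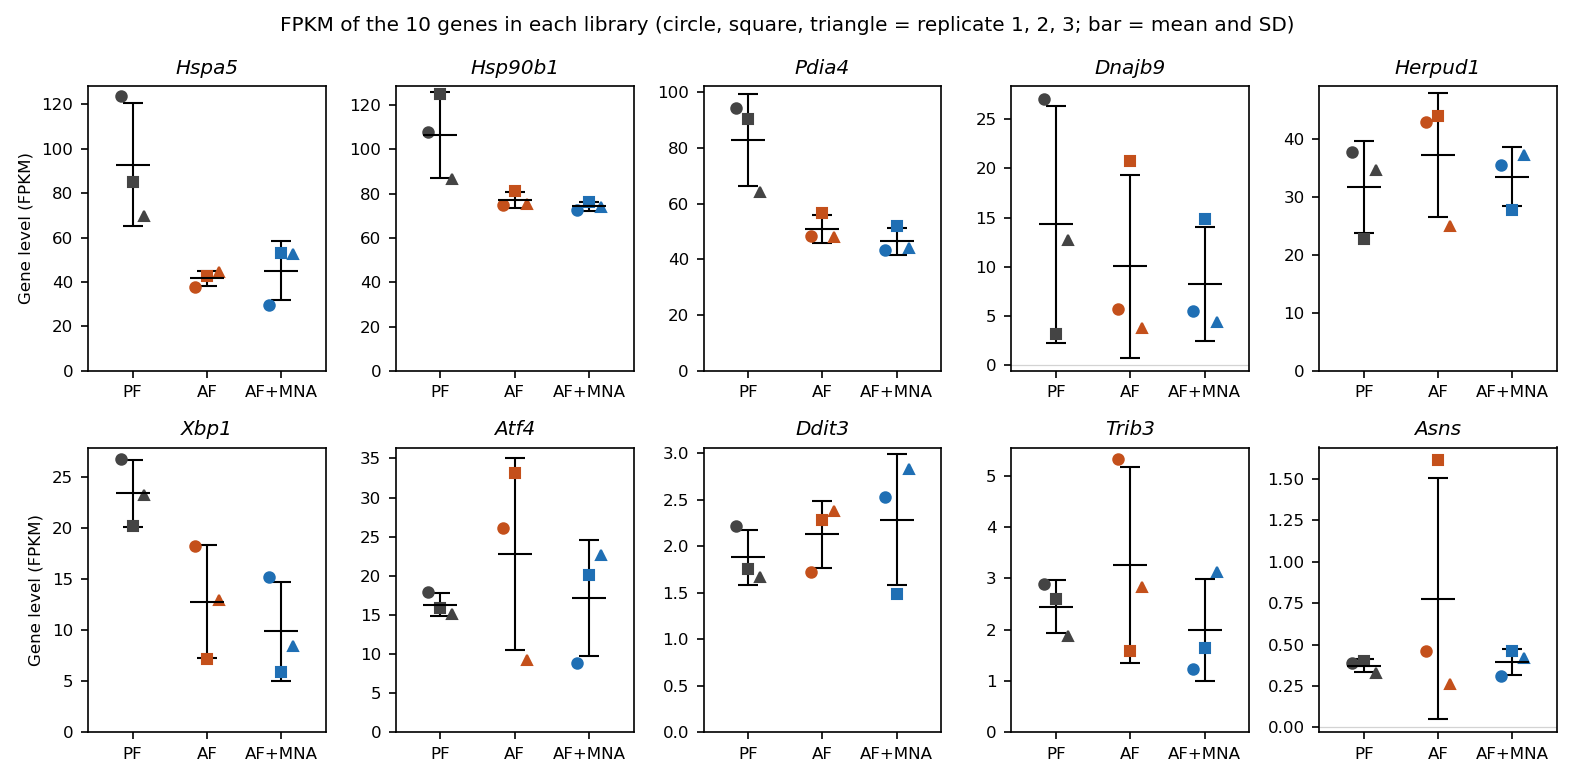
FPKM (vertical axis, from 0, with its own scale in each panel) of the 10 genes in PF, AF and AF+MNA, with 1 point per library and the mean and SD of 3 libraries as bars. In Hspa5, Hsp90b1, Pdia4 and Xbp1 the 3 PF points lie above all 6 points of AF and AF+MNA, while the groups overlap in the other 6 genes.

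As compared to PF, the ER chaperones Hspa5, Hsp90b1 and Pdia4 and the transcription factor gene Xbp1 were lower in AF, in every library. The remaining genes, among them the 4 of the ATF4 arm, overlapped between AF and PF. No difference passed an adjusted p of 0.05. At an unadjusted p under 0.05 there were 4 lower genes of 10 and 0 higher, where 6.57% of all 12273 genes tested were lower and 5.1% higher at that level. The AF and PF ranges did not overlap, with AF lower, in the same 4 of 10, as compared to 10.1% of all genes. By the adjusted p, 40 genes or 0.326% of all were called. The median coefficient was -0.14 over the 10 genes and -0.03 over all genes.

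Hspa5 encodes BiP, the HSP70 chaperone of the ER lumen that also holds the stress sensors inactive (chr2:34771970-34777547, plus strand, GRCm38 by GENCODE M21). Its level was 124, 85.1 and 69.7 FPKM in PF and 37.7, 42.8 and 44.5 in AF. The highest AF library was thus well below the lowest PF library, and the AF libraries lay close together whereas PF spread 1.77-fold. The mean was 92.8 ± 27.7 FPKM in PF and 41.7 ± 3.54 in AF (SD, n = 3 each), which is 55.1% lower. The coefficient was -1.10 (SE 0.226), with an unadjusted p of 0.00218 and an adjusted p of 0.144 by limma. Hspa5 was the 1 gene of the 10 with an unadjusted limma p under 0.05 and a log2 ratio of mean FPKM beyond 1 in size, the limits that the study's methods give for lncRNAs, applied here to genes, which 2.35% of all genes met in the lower direction. The log2 ratio was -1.16, and -0.89 without PF replicate 1, which is inside the limit. For Xbp1 it was -0.87, and -1.21 without AF replicate 1.

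Hsp90b1 encodes GRP94, the HSP90 paralog of the ER (chr10:86690209-86705509, minus strand). It stood at 108, 125 and 86.5 FPKM in PF and at 75.0, 81.4 and 75.4 in AF. The gap between the groups was small, 86.5 in the lowest PF library against 81.4 in the highest AF library. The coefficient was -0.44 (SE 0.170), with an unadjusted p of 0.0372 and an adjusted p of 0.393 by limma. When single libraries were left out, Hsp90b1 stayed under an unadjusted p of 0.05 if that library was PF replicate 3 or AF replicate 2, and did not for the other 4.

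Pdia4 encodes a protein disulphide isomerase of the ER, also called ERp72 (chr6:47796141-47813430, minus strand). Its level was 94.3, 90.2 and 64.0 FPKM in PF and 48.2, 56.6 and 47.8 in AF. The means were 82.8 ± 16.4 and 50.9 ± 4.96 FPKM (SD, n = 3 each), or 38.6% lower in AF. The coefficient was -0.68 (SE 0.187), with an unadjusted p of 0.00968 and an adjusted p of 0.266 by limma. In Hspa5, Hsp90b1 and Pdia4 alike, PF replicate 3 was the lowest PF library, while AF replicate 2 was the highest AF library only in the latter pair.

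Xbp1 encodes the transcription factor made active by IRE1 splicing (chr11:5520659-5525893, plus strand). It was listed at 26.8, 20.2 and 23.2 FPKM in PF and at 18.2, 7.18 and 13.0 in AF. Here PF was the tight group and the AF libraries differed 2.53-fold among themselves. The mean was 45.3% lower in AF, with a coefficient of -0.90 (SE 0.312), an unadjusted p of 0.0254 and an adjusted p of 0.360 by limma. Without AF replicate 2, the lowest AF library, the coefficient was -0.57. Without PF replicate 1, Hspa5 and Pdia4 were the only 2 of these 4 genes left at an unadjusted p under 0.05. Their coefficients were then -0.87 and -0.57, and those of Hsp90b1 and Xbp1 were -0.42 and -0.80. Xbp1 was also above that level without PF replicate 3 (limma, unadjusted p = 0.0566). With the intron signal of each library as a covariate, Hspa5 and Pdia4 had an unadjusted p of 0.00808 and 0.0285, as compared to 0.0845 for Hsp90b1 and 0.0565 for Xbp1 (limma). With libraries scaled to the same median, Hsp90b1 had an unadjusted p of 0.0568 (limma) and the other 3 stayed under 0.05.

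Dnajb9 and Herpud1, which respond to the same sensors in cells under ER stress, did not separate AF from PF. Dnajb9 encodes ERdj4, a J-domain partner of BiP, and stood at 27.1, 3.09 and 12.7 FPKM in PF and at 5.65, 20.8 and 3.70 in AF. It spread 8.76-fold within PF, and its coefficient of -0.40 had a 95% interval from -2.39 to 1.58. Herpud1 encodes a membrane protein of ER-associated degradation (ERAD) and stood at 37.8, 22.8 and 34.6 FPKM in PF and at 42.8, 43.8 and 24.9 in AF. Its coefficient was 0.21, with an interval from -0.47 to 0.89.

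Atf4, the transcription factor gene of the eIF2α branch, was at 17.9, 15.9 and 15.2 FPKM in PF and at 26.1, 33.1 and 9.23 in AF. AF replicates 1 and 2 lay above all of PF and replicate 3 below all of PF. That last AF library was the one with high intron signal, and the part of that signal in the Atf4 value was not tested beyond the fits that follow. Over all AF libraries the coefficient was 0.29 (95% interval -0.75 to 1.33). Without AF replicate 3 it was 0.81 (SE 0.165), with an unadjusted p of 0.00353 and an adjusted p of 0.164 (limma). Leaving out AF replicate 1 instead gave 0.11, and leaving out AF replicate 2 gave -0.054. The coefficient thus changed in size and direction with the AF library left out. With the intron signal of each library as a covariate it was 0.69, with an unadjusted p of 0.0255 and an adjusted p of 0.348 (limma).

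Ddit3, which encodes CHOP, a C/EBP family factor of prolonged stress, was low in every library. It was listed at 2.22, 1.76 and 1.67 FPKM in PF and at 1.72, 2.28 and 2.38 in AF. The groups overlapped, and the coefficient of 0.12 had an interval from -0.23 to 0.46.

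Trib3, a pseudokinase gene downstream of ATF4 and CHOP, was at 2.88, 2.6 and 1.87 FPKM in PF and at 5.33, 1.58 and 2.84 in AF. A single AF library, replicate 1, lay above PF. The coefficient of 0.22 had an interval from -0.57 to 1.00, and it was -0.12 without that library. Asns, the asparagine synthetase gene and a standard ATF4 target, was at 0.39, 0.40 and 0.33 FPKM in PF and at 0.46, 1.61 and 0.26 in AF. It reached the minimum of 0.5 FPKM only through AF. Its mean was 2.08-fold higher there through replicate 2 alone, and the coefficient was 0.30 (95% interval -0.35 to 0.94). Without that library the mean of Asns was under 0.5 FPKM and it was not tested, and without AF replicate 3 the coefficient was 0.51. AF replicate 2 was also the library with the highest Atf4, and AF replicate 3 had the lowest AF value of both.

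**Figure D2:**
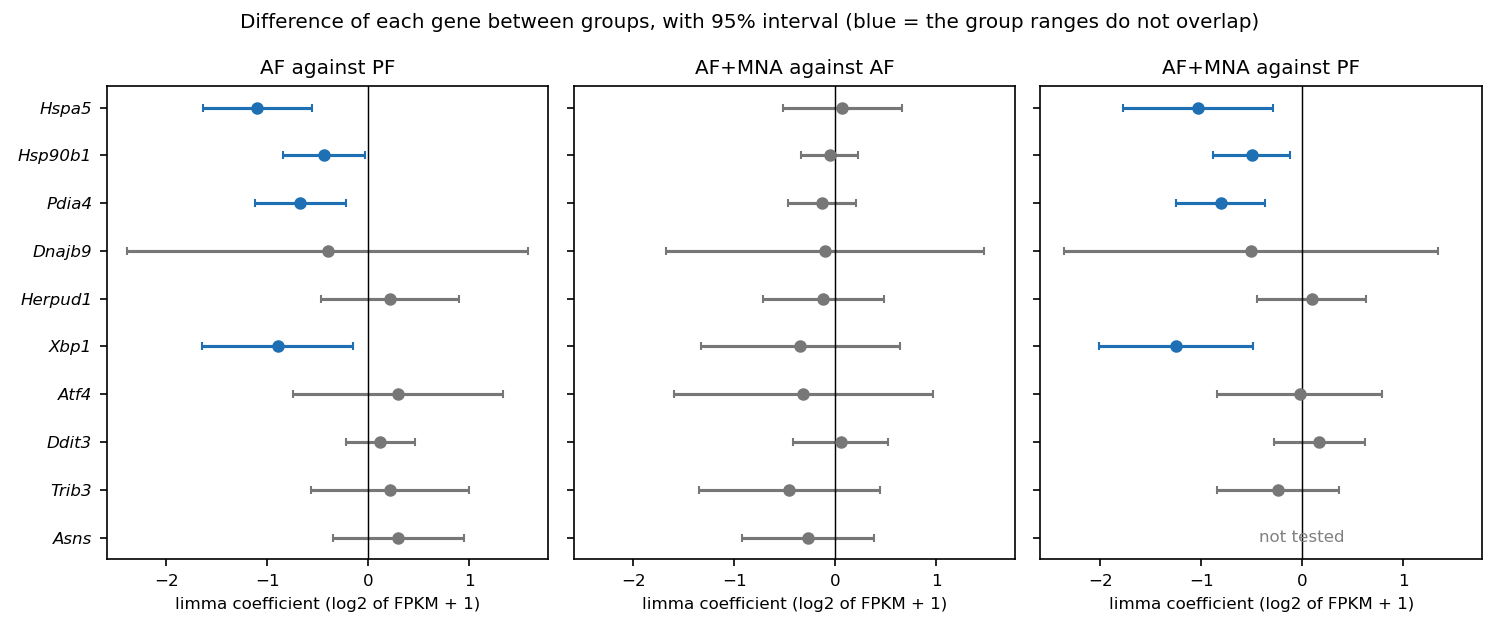
limma coefficients on the log2(FPKM + 1) scale (horizontal axis) with 95% intervals for the 10 genes in AF against PF and AF+MNA against AF and for 9 of them, without Asns, in AF+MNA against PF, blue where the library ranges of both groups do not overlap. In AF against PF and in AF+MNA against PF the intervals of Hspa5, Hsp90b1, Pdia4 and Xbp1 lie below 0, and in AF+MNA against AF all 10 intervals include 0.

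AF+MNA was compared with AF to see whether the 10 genes differed when MNA was given with alcohol. None separated the groups. The comparison uses the same AF libraries as the one above, and the comparison with PF below shares libraries with both. By limma 0 of 10 genes had an adjusted p under 0.05, as compared to 0.0491% of 12219 genes tested, and 0 had an unadjusted p under 0.05, as compared to 2.91% of all genes higher and 2.3% lower. The ranges overlapped in all 10, where 5.53% of all genes lay apart with AF+MNA higher and 4.57% with AF+MNA lower. The median coefficient was -0.12 over the 10 and 0.01 over all genes.

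Hspa5 was at 29.7, 53.0 and 52.7 FPKM in AF+MNA, so that 1 library was below and the others were above all of AF. Its coefficient against AF was 0.07, with an interval from -0.52 to 0.66. Hsp90b1 at 72.4, 76.3 and 74.0 FPKM differed from AF by a coefficient of -0.06 (95% interval -0.34 to 0.23), the narrowest interval of the 10. Pdia4 at 43.2, 51.9 and 44.1 FPKM had a coefficient of -0.13, with an interval from -0.47 to 0.21. For these 3 chaperones the intervals leave out a difference from AF as large as the Hspa5 coefficient between AF and PF, in either direction. For Xbp1 the interval of -1.33 to 0.64 includes a fall of that size and leaves out a rise of that size.

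Xbp1 was at 15.2, 5.95 and 8.43 FPKM in AF+MNA, with a coefficient against AF of -0.35. That value was -0.067 without AF replicate 1 and -0.071 without AF+MNA replicate 2, as compared to -0.68 without AF replicate 2 or AF+MNA replicate 1. Herpud1 at 35.5, 27.6 and 37.2 FPKM lay inside the AF range in every library. Dnajb9 at 5.49, 14.9 and 4.36 FPKM did too, again with 1 library well above the others. The coefficients of both were near -0.1, at -0.12 for Herpud1 and -0.10 for Dnajb9.

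In the ATF4 arm, Atf4 was at 8.81, 20.1 and 22.7 FPKM in AF+MNA. Replicate 1, the lowest, was the other library with high intron signal, so the lowest Atf4 value of AF and that of AF+MNA both came from such a library. The Atf4 coefficient against AF was -0.32 (95% interval -1.60 to 0.96), and -0.44 (limma, unadjusted p = 0.0775) without both of these libraries. It was -0.84 without AF replicate 3 alone and 0.081 without AF+MNA replicate 1 alone. Ddit3 was at 2.53, 1.49 and 2.83 FPKM, Trib3 at 1.23, 1.65 and 3.12, and Asns at 0.31, 0.46 and 0.42 in AF+MNA. Trib3 had a coefficient against AF of -0.46, with an interval from -1.35 to 0.44, and it was -0.12 without AF replicate 1 and -0.77 without AF replicate 2. The Asns coefficient was -0.27, and -0.48 without AF replicate 3. The single high AF library of Trib3 and that of Asns had no counterpart in AF+MNA.

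Set against PF, AF+MNA showed lower levels of 4 genes. Hspa5, Hsp90b1, Pdia4 and Xbp1 were each below the lowest PF library in all 3 AF+MNA libraries, 4 of the 9 genes tested, where 11.9% of 12281 genes lay apart in that direction. The same 4 had an unadjusted p under 0.05, as compared to 7.94% of all genes lower and 6.52% higher, and by adjusted p, at which 0.423% of all genes were called, none passed. The coefficient was -1.03 (SE 0.305) for Hspa5, with an unadjusted p of 0.0142 and an adjusted p of 0.249 by limma. For Hsp90b1 it was -0.50 (SE 0.157), with an adjusted p of 0.271 by limma. For Pdia4 it was -0.81 (SE 0.180), with an adjusted p of 0.153 by limma. Xbp1 was 57.8% lower than in PF, with a coefficient of -1.25 (SE 0.313), an unadjusted p of 0.00678 and an adjusted p of 0.192 by limma. Hspa5 and Xbp1 passed both of these limits, which 1.95% of all genes met in the lower direction. The log2 ratio of Hspa5, -1.04, was inside the limit without PF replicate 1 (-0.78) or AF+MNA replicate 1 (-0.81), and that of Xbp1, -1.24, without AF+MNA replicate 2 (-0.98). In each fit with 1 library left out, all 4 kept an unadjusted p under 0.05.

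The other genes of the list did not separate AF+MNA from PF, and Asns, with a mean under 0.5 FPKM over the 6 libraries, was not tested. Their coefficients lay between -0.51 (Dnajb9) and 0.17 (Ddit3). The median over the 9 genes tested was -0.50, as compared to -0.02 over all genes. Without AF+MNA replicate 1 the coefficient of Atf4 was 0.37, with an unadjusted p of 0.0315 and an adjusted p of 0.329 (limma), in place of -0.02. Without AF+MNA replicate 3 the Atf4 coefficient was -0.26. Ddit3 had a coefficient of 0.36 without AF+MNA replicate 2, with an unadjusted p of 0.0412 and an adjusted p of 0.439 (limma). It was 0.045 without AF+MNA replicate 3. Trib3 was at -0.49 without AF+MNA replicate 3, with an unadjusted p of 0.0368 and an adjusted p of 0.415 (limma), in place of -0.24. Without AF+MNA replicate 1 it was -0.051. Each of these values thus depended on which library was left out.

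Likeness among the 10 was measured as the root-mean-square distance between profiles of log2(FPKM + 1) over the 9 libraries, each gene centred and scaled to unit SD. The nearest pair was Hsp90b1 and Pdia4 at 0.278, followed by Hspa5 and Pdia4 at 0.448 and Hspa5 and Hsp90b1 at 0.583. The nearest pair outside the chaperones was Atf4 and Asns at 0.753. The Asns profile had its high value of 1.61 FPKM in AF replicate 2, and its other values ranged from 0.26 to 0.46. Trib3, also an ATF4 target, was at 1.20 from Atf4 and at 1.57 from Asns, and was nearest to Xbp1 at 1.17. The median distance from Asns to genes averaging 5 FPKM or more was 1.51. Herpud1 was nearest to Atf4 at 0.942 and further from Hspa5 at 1.57, and Xbp1 was nearest to Pdia4 at 0.919. All pairs share the same libraries, so these distances are a description.

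The wider pathway was followed with gene lists. Genes whose entry also held a coding gene outside the list were left out, and no list gene had an adjusted p under 0.05 in any comparison. Among 26 ER chaperones and folding enzymes other than the members, 21 had a coefficient below 0 in AF against PF, as did 6690 of all 12273 genes, 6 were lower at an unadjusted p under 0.05 and 1 was higher. The background shares were 6.57% lower and 5.1% higher, and the list's median coefficient was -0.13. Creld2, an ER-resident gene induced by ER stress, was at 20.3, 17.8 and 7.14 FPKM in PF and at 3.67, 5.24 and 3.03 in AF, with a coefficient of -1.60 (SE 0.384). Creld1, its paralog, was at 8.03, 7.10 and 7.57 FPKM in PF and at 4.82, 4.91 and 4.76 in AF, with a coefficient of -0.55 (SE 0.109). The gene in the other direction was Ero1l, the oxidase that recharges disulphide isomerases, at 2.10, 2.51 and 3.88 FPKM in PF and 5.54, 5.83 and 5.55 in AF. In Creld2, as in Hspa5, PF replicate 3 was the lowest of PF and still above all of AF.

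The other 4 folding genes that were lower, named here after their values were seen, had coefficients between -0.95 and -0.56. They were Ero1lb, the other ER oxidase, Pdia3, the isomerase that works with calnexin and calreticulin, Hyou1, a nucleotide exchange factor of BiP, and Sdf2l1, an ER protein that works with BiP. For AF+MNA against PF, 7 of the 26 were lower and 0 higher, where 7.94% of all genes were lower and 6.52% higher, with a list median of -0.15. Ero1lb was at 22.3, 21.7 and 17.1 FPKM in PF. In AF its level was 12.5, 14.2 and 10.9 FPKM, and the AF+MNA libraries had 10.7, 11.2 and 11.3. Its coefficient in AF+MNA against PF was -0.82 (SE 0.126), with an unadjusted p of 0.000578 and an adjusted p of 0.0897 by limma. Sdf2l1 was at 14.8, 11.1 and 5.48 FPKM in PF and at 1.83, 4.34 and 2.58 in AF+MNA, with a coefficient of -1.51 (SE 0.383), and Creld2 had a coefficient of -1.49 (SE 0.373). Between AF+MNA and AF, Creld1 alone of the 26 had an unadjusted p under 0.05, a share near the 2.91% of all genes that were higher and 2.3% that were lower. Its coefficient was 0.43, with 6.64, 5.99 and 8.08 FPKM in AF+MNA.

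**Figure D3:**
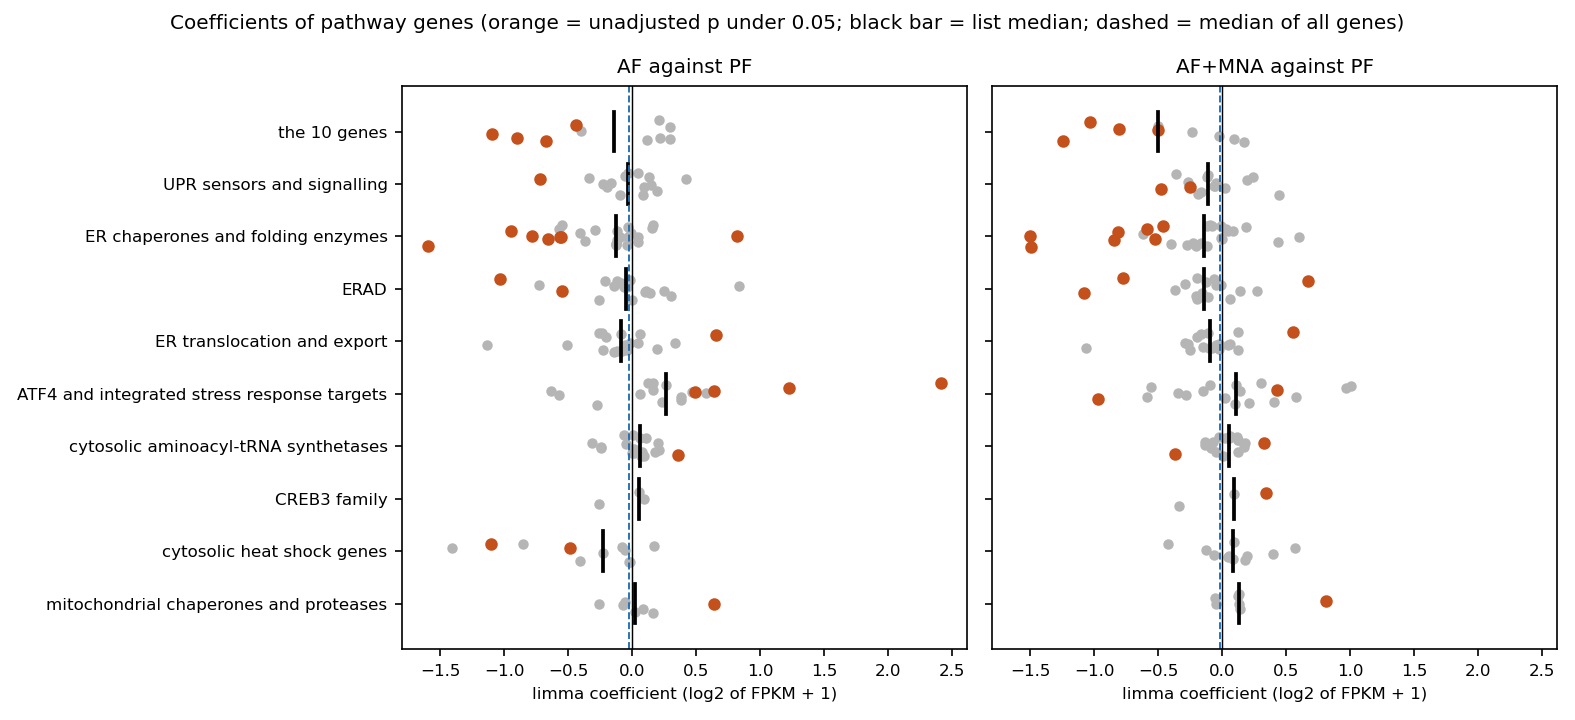
limma coefficients (horizontal axis, log2(FPKM + 1) scale) of the tested genes in each list for AF against PF and AF+MNA against PF, orange at an unadjusted p under 0.05, with the list median as a black bar and the median of all genes dashed. Among the folding enzymes 6 of 26 genes in AF against PF are orange on the lower side, and among the ATF4 targets 4 of 17 on the higher side.

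Of 18 ERAD genes, 2 were lower and 0 higher in AF against PF at an unadjusted p under 0.05, as compared to 6.57% and 5.1% of all genes. They were the channel components Derl2 and Derl3, and Derl3 was at 1.86, 2.79 and 0.41 FPKM in PF and at 0.12, 0.08 and 0.48 in AF, so that these groups overlapped. Derl3 reached the minimum of 0.5 FPKM only through PF, the group in which it was high, so its place in these counts follows from the filter. Against PF, the AF+MNA group had Derl3 and Syvn1, the ubiquitin ligase HRD1, lower (coefficients -1.08 and -0.78) and Faf2, an adaptor of the p97 ATPase, higher (0.67), of 18 tested, where 7.94% of all genes were lower and 6.52% higher. Between AF+MNA and AF, Derl2 and Faf2 were higher in AF+MNA (0.42 and 0.68) and Derl1 lower (-0.88), of 17 tested, against 2.91% of all genes higher and 2.3% lower. The list median was -0.05 in AF against PF, -0.14 in AF+MNA against PF and -0.05 in AF+MNA against AF, where those of all genes were -0.03, -0.02 and 0.01.

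Of 15 sensors and regulators tested, 1 was lower in AF against PF, where 6.57% of all genes were. It was Eif2ak2, which encodes PKR, at 3.49, 3.55 and 3.11 FPKM in PF and 1.96, 1.9 and 1.20 in AF. It was lower in AF+MNA than in PF too (coefficient -0.48), together with Eif2ak4, which encodes GCN2 (-0.25). Eif2ak3, which encodes PERK, was lower in AF+MNA than in AF (-0.36). None of the 15 was higher in a comparison at that level. Of all genes 7.94% were lower and 6.52% higher in AF+MNA than in PF, and 2.3% lower and 2.91% higher in AF+MNA than in AF. Of 18 translocation and export genes, Sec61a1, the channel subunit of the translocon, was the one with an unadjusted p under 0.05 and was higher in AF (0.65) and in AF+MNA (0.55) than in PF, a share near the 5.1% and 6.52% of all genes. Of 3 tested CREB3 family genes, which encode ER-anchored factors, none passed that level in AF against PF or AF+MNA against AF, and Creb3l3, a liver factor, was higher in AF+MNA than in PF (0.34), the shares of all genes being those just given.

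Of 30 ATF4 targets on the list 17 reached 0.5 FPKM in AF against PF, and 14 of them had a coefficient above 0, as did 5583 of all 12273 genes. At an unadjusted p under 0.05, 4 were higher and 0 lower, as compared to background shares of 5.1% and 6.57%, and the list median was 0.26. Sesn2, a stress-induced inhibitor of mTORC1, was at 2.5, 2.07 and 2.31 FPKM in PF and at 3.87, 4.07 and 4.44 in AF, with a coefficient of 0.64 (SE 0.116) and an adjusted p of 0.114 by limma. Gpt2, the mitochondrial alanine transaminase, had a coefficient of 0.49 (SE 0.143). Gdf15, a secreted stress cytokine, was at 0.76, 0.57 and 0.72 FPKM in PF and at 1.39, 7.18 and 2.12 in AF. The fourth was Ddit4, an mTORC1 inhibitor named here after its values were seen, at 0.31, 0.59 and 3.00 FPKM in PF and at 29.7, 17.9 and 1.17 in AF. AF replicate 3, low for Atf4, was also low for Ddit4 and not for Sesn2.

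In AF+MNA against PF, Sesn2 was higher (coefficient 0.43) and Atf5, an ATF4-induced factor gene, lower (-0.97), of 18 tested, shares near the 6.52% and 7.94% of all genes. Atf5 was lowest in the same pair of libraries as Atf4, at 11.6 FPKM in AF replicate 3 and 11.3 in AF+MNA replicate 1, where the other libraries ranged from 18.9 to 42.3. Relative to AF, 1 of 18 in AF+MNA was lower, Chac1, a glutathione-degrading enzyme gene downstream of ATF4, at 2.90, 2.5 and 1.33 FPKM in AF and 0.04, 1.39 and 0.23 in AF+MNA. Of all genes 2.3% were lower and 2.91% higher in that comparison. The list median was 0.10 in AF+MNA against PF and -0.12 in AF+MNA against AF.

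**Figure D4:**
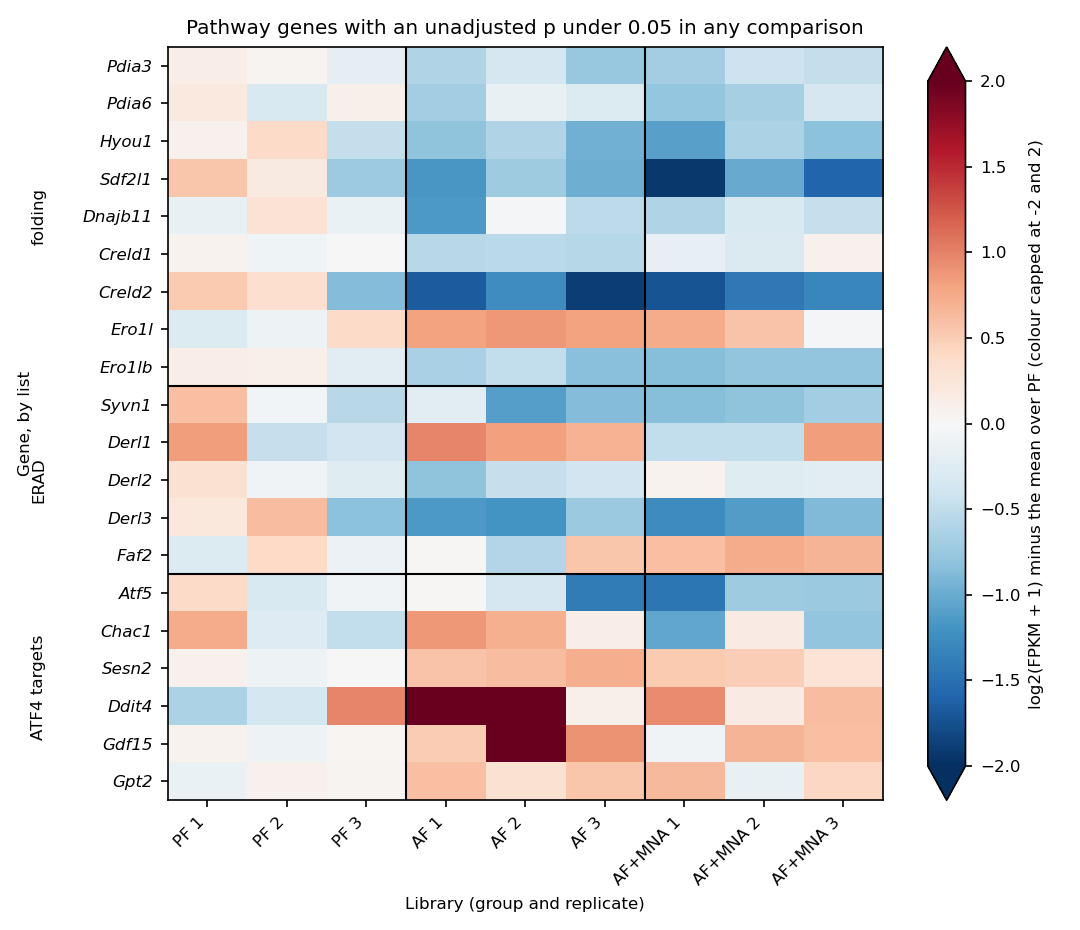
log2(FPKM + 1) minus the PF mean (colour, capped at -2 and 2) of the 20 folding, ERAD and ATF4 target genes with an unadjusted p under 0.05 in any comparison, by library. Most folding genes are blue in all 6 libraries of AF and AF+MNA, Ero1l is red in 5 of them, and Ddit4 is dark red in AF replicates 1 and 2.

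Markers of other secretory cells were read because plasma cells and pancreatic acinar cells hold much of these chaperones and of Derl3. The 9 plasma and B cell markers summed to 26.4 to 34.1 FPKM in PF, to 28.1 to 45.1 in AF and to 27.4 to 37.4 in AF+MNA, most of it from Sdc1, which hepatocytes also express. Jchain and Mzb1, defining markers of plasma cells, were at most 0.39 FPKM in any library. Ighm had a mean of 1.62 ± 0.578 FPKM in PF, as compared to 0.48 ± 0.121 for AF and 0.49 ± 0.104 for AF+MNA (SD, n = 3 each), so it was lower in the same groups as Hspa5, Hsp90b1 and Pdia4, and it too reached 0.5 FPKM only through PF. Of 6 acinar markers, Cela1 held nearly all of the signal, with a mean of 6.01 FPKM in PF against 3.31 in AF and 4.90 in AF+MNA, and the others were at most 0.28 in any library. Sinusoidal endothelial markers summed to between 30.5 and 43.1 FPKM in PF and 50.3 and 53.5 in AF+MNA, while the AF sums, from 39.5 to 55.5, overlapped both. In AF+MNA against PF 4 of 8 were higher at an unadjusted p under 0.05, as compared to 6.52% of all genes, and in AF against PF 1 of 8 was, as compared to 5.1%. In the latter, 7 of 8 coefficients were above 0, as were 5583 of all 12273. Kupffer, stellate and cholangiocyte sums are given with the other observations, and neutrophil markers summed to at most 2.0 FPKM. The part of these cells in the values of the 10 genes was not tested.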

How the data were processed

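Total RNA of 9 liver libraries was depleted of ribosomal RNA and sequenced from both ends in strand-specific libraries. The submitters' processing notes name cutadapt 1.9, FastQC, HISAT2, TopHat, StringTie 1.3.4 and edgeR, and the genome build is not given in the sources used here. FPKM values of genes were made by the authors with StringTie from assembled transcripts and are rounded to 2 decimals as deposited. The coverage values of the lncRNA table are the read depth per base that the authors' StringTie run wrote, and served for the depth of each library and, with the FPKM of intron transcripts, for the signal in introns. Of 7879 known lncRNA transcripts 7841 were found in GENCODE M21, 7708 at the same position, so GRCm38 coordinates are used for genes. The circRNA table was not used.

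Groups and replicate numbers came from the sample labels. Of 26350 named entries with a known transcript, those averaging 0.5 FPKM or more across both groups' 6 libraries were fitted as log2(FPKM + 1) with limma 3.58.1 (lmFit, and eBayes with trend) in R 4.3.3. Tests were two-sided, with Benjamini-Hochberg adjustment over all genes tested, and a gene was called at an adjusted p under 0.05. The 10 genes and the pathway and marker lists were chosen with earlier results of these data known. Named are the 10 genes and, from each list and comparison, genes called or otherwise at most the 3 with the lowest unadjusted p under 0.05. The 5 genes most like Hspa5 and Asns were taken among genes averaging 5 FPKM or more, and 1 of them is not reported here. Of 234 list symbols 228 had an entry. The fits were tested on simulated data. Same-numbered libraries of different groups did not deviate together, with correlations of their deviations from the group means between -0.079 and 0.0625, so the replicate numbers were not used as pairs. Alternatives were pseudocounts of 0.1 and 0.01, other minimum levels, scaling to the same median, no trend, all 9 libraries in 1 fit, a replicate block, all entries, each library left out, and the intron signal as a covariate. Python 3.11.15, pandas 2.3.3, numpy 2.4.6 and matplotlib 3.10.9 were used.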

Additional observations from a re-analysis of the deposited data

How the results depend on the processing

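Over 470 refits of the 10 genes, 446 kept the direction and the side of the adjusted threshold and 24 turned the direction, and no adjusted p of the 10 fell under 0.05. The lowest adjusted p was 0.0714 (limma, Xbp1 in AF+MNA against PF without AF+MNA replicate 1). The coefficients of Hspa5, Hsp90b1, Pdia4 and Xbp1 against PF stayed below 0 in every refit. With intron signal as a covariate the direction turned for Dnajb9 in AF against PF (0.047) and for Hspa5 in AF+MNA against AF (-0.015). With 1 library left out, coefficients crossed 0 as follows. In AF against PF they ran from -1.16 to 0.23 for Dnajb9, -0.0039 to 0.47 for Herpud1, -0.054 to 0.81 for Atf4 and -0.12 to 0.53 for Trib3. The ranges in AF+MNA against AF were from -0.068 to 0.34 for Hspa5, -0.58 to 0.55 for Dnajb9, -0.38 to 0.020 for Herpud1, -0.84 to 0.081 for Atf4 and -0.070 to 0.24 for Ddit3. Those in AF+MNA against PF were from -1.26 to 0.13 for Dnajb9, -0.12 to 0.23 for Herpud1 and -0.26 to 0.37 for Atf4.

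The counts over all genes moved more. In AF against PF 40 genes were called, as compared to 24 with any mean above 0, 86 with all 9 libraries in the fit, 18 with a replicate block, 7 with the intron covariate and 25 to 47 with 1 library left out. The count at an unadjusted p under 0.05 was 1432, and 923 with a minimum of 2 FPKM. The count at the study's lncRNA threshold was 527, and 1183, 265 and 993 with any mean above 0, at least 2 FPKM and all entries. Of the 10 genes, 2 to 4 had an unadjusted p under 0.05 with 1 library left out. For AF+MNA against AF 6 genes were called, as compared to 2 with any mean above 0, 2 with at least 2 FPKM, 2 with the intron covariate, 1 with a replicate block, 0 with all 9 libraries in the limma fit (752 at an unadjusted p under 0.05) and 6 to 13 with 1 library left out. The unadjusted count of 637 was 1113 with any mean above 0, 364 with at least 2 FPKM and 404 (without AF+MNA replicate 3) to 903 (without AF replicate 3) with 1 library left out. The study's threshold gave 242, and 676, 81 and 572 with any mean above 0, at least 2 FPKM and all entries, and 211 to 367 with 1 library left out. Leaving out both libraries of high intron signal, chosen after seeing the data, gave 3 called and 470 at the study's threshold. For AF+MNA against PF 52 genes were called, as compared to 22 with any mean above 0, 0 with a replicate block (limma, 1453 at an unadjusted p under 0.05) and 24 (without AF+MNA replicate 3) to 47 with 1 library left out. Its unadjusted count of 1776 was 1167 with at least 2 FPKM, and 477 at the study's threshold was 1105, 228 and 837 with any mean above 0, at least 2 FPKM and all entries. The replicate block changed no call of the 10 genes, and not every library correlated best with its own number. Asns had no value in AF against PF without AF replicate 2. The cause of these shifts was not tested. The table gives no counts, so the depth behind each gene is unknown.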

Other observations

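Cytosolic heat shock genes, which serve the cytosol rather than the ER, were lower in AF than in PF for 2 of 11 at an unadjusted p under 0.05, with 10 of 11 coefficients below 0 and a list median of -0.23. Of all 12273 genes tested, 6.57% were lower at that level and 6690 had a coefficient below 0. Hsp90aa1, the stress-inducible cytosolic HSP90, was at 38.5, 31.8 and 27.6 FPKM in PF and at 12.1, 16.8 and 15.1 in AF, with a coefficient of -1.10 (SE 0.182) and an adjusted p of 0.1 by limma. Hsp90ab1, its constitutive paralog, had a coefficient of -0.48 (SE 0.16). As compared to AF, the AF+MNA group had 3 of 11 higher at an unadjusted p under 0.05 and 0 lower, with a median of 0.35, where 2.91% of all genes were higher. The entry that holds both Hspa1a and Hspa1b, inducible cytosolic HSP70 genes, was at 0.60, 1.13 and 2.21 FPKM in AF and at 3.55, 14.4 and 8.44 in AF+MNA, but PF ranged from 1.46 to 25.4. Hspa8, the constitutive HSP70, had a coefficient of 0.59, and Hsph1, an HSP110 exchange factor, of 0.93. As compared to PF, none of the 11 had an unadjusted p under 0.05 in AF+MNA by limma. Of all genes 6.52% were higher and 7.94% lower in that comparison. No adjusted p in this list was under 0.05, and the difference between the cytosolic and the ER chaperones was not tested.

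Of 19 cytosolic aminoacyl-tRNA synthetases, many of them known ATF4 targets, Tars was higher in AF than in PF (coefficient 0.36) and in AF+MNA than in PF (0.33), and Dars was lower in AF+MNA than in PF (-0.37). These counts of 1 in 19 are near the shares of all genes, 5.1% higher in AF and 6.52% higher and 7.94% lower in AF+MNA. None passed an unadjusted p of 0.05 in AF+MNA against AF by limma, where 2.91% of all genes were higher and 2.3% lower. Of 7 mitochondrial chaperones and proteases, Clpx, the ATPase of the mitochondrial Clp protease, was higher in AF (0.64) and in AF+MNA (0.81) than in PF, and none passed that level in AF+MNA against AF. The same shares of all genes apply to this list.

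Among 3602 genes averaging 5 FPKM or more, the profiles over the 9 libraries nearest to Hspa5 included those of Hao1 at a distance of 0.321, Serpina1a at 0.363, Aox3 at 0.369 and Cyp4a12b at 0.38, where the median distance was 1.40. Cyp4a12b, a fatty acid hydroxylase, was at 22.2, 34.2 and 16.3 FPKM in PF and at most 8.24 in the other 6 libraries. Cyp4a12b and Serpina1a belong to families of near-identical copies, which makes their levels uncertain. Nearest to Asns were Fh1 at 0.293, Kdm5c at 0.349, Ppm1a at 0.400, Impad1 at 0.405 and Chpt1 at 0.432, with a median of 1.51. All 5 of these were highest in AF replicate 2, the library with the high Asns value, and the shared libraries make these distances a description.

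Kupffer cell markers summed to 78.5 to 95.2 FPKM in PF, 65.7 to 120 in AF and 82.6 to 110 in AF+MNA. Stellate cell markers summed to 60.7 to 66.3, 51.5 to 80.9 and 66.7 to 90.7 FPKM, and cholangiocyte markers to 3.44 to 4.45, 4.95 to 9.42 and 3.63 to 6.37 FPKM, in the same order of groups.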
